A study of Capra hircus with 9 samples.

Results

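The SLC25 family is the set of mitochondrial carriers, small proteins of the inner mitochondrial membrane that pass metabolites, nucleotides, cofactors and metal ions between the cytosol and the mitochondrial matrix. Members were taken as the rows of the deposited count table whose gene symbol is SLC25A followed by a number, a rule that uses no measured value. It took 42 of 25671 rows, of which 37 passed the low-count filter and were tested among 16098 genes. Polyadenylated RNA had been counted per gene in goat uterus (Capra hircus, Liaoning Cashmere breed) at day 6, day 16 and day 19 peri-implantation, with 3 libraries per day. The labels name no genotype, treatment, age or non-pregnant control, and the event from which days were counted is not stated in them.

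A carrier works as an exchanger or a uniporter with a binding site that opens in turn to either side of the membrane. Nuclear genes encode the carriers, and the TIM22 complex inserts them into the inner membrane. They supply the respiratory chain with ADP and phosphate, export citrate for lipid synthesis, bring in iron and glycine for heme, and carry acylcarnitines, S-adenosylmethionine and folate. The uterine lining of ruminants secretes nutrients, ions and proteins for the conceptus in the weeks around implantation, work that draws on mitochondrial energy and biosynthesis.

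The libraries held 8712751 to 11074693 counts, and the 42 carrier genes together took 0.156% to 0.194% of them. The labels conflict on the source: uterus is the tissue entry, the title of the series names the epithelium of the endometrium, and the collection text has testis. The 6 epithelial markers in the table, from a list of 8, held 0.0525% to 0.119% of the counts of a library. Smooth muscle markers (7 genes) held 1.01% to 3.90% and fibroblast markers (7 genes) 1.73% to 3.53%, shares of counts that are not corrected for gene length. Of the 6 testis germ cell markers in the table, TNP1, ODF1 and SYCP3 were at 0 in all 9 libraries and the sum of the 6 reached at most 1.98 CPM, the count scaled to a common library total. The data are therefore called uterus here. Day 19 replicate 1 stood apart from the other day 19 libraries. For 48.6% of all tested genes it lay more than 1.5-fold above or below both of them, against 5.93% to 12.1% for any other library within its day. The 75 ribosomal protein genes took 2.42% of its counts, against 6.61% and 5.64% in replicates 2 and 3. In bulk tissue, fewer cells of a type and less RNA per cell cannot be told apart. Whether the libraries of a day come from separate animals is not stated, and each p-value measures only the spread between them, which may be technical.

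Of the 37 tested carriers, 10 changed with the day (27.0%, against a background of 19.6% of all 16098 tested genes), by the edgeR quasi-likelihood F test over the 3 days at a Benjamini-Hochberg adjusted p under 0.05. The mitochondrial iron importer SLC25A28 and the glycine carrier SLC25A38 rose by day 16 and stayed high at day 19. The carriers of S-adenosylmethionine (SLC25A26) and acylcarnitine (SLC25A20) were higher at day 19 than at day 6, while the ornithine carrier SLC25A15, the ATP-Mg/phosphate carriers SLC25A23 and SLC25A25 and the orphan SLC25A35 were lower. The uncoupling protein relative SLC25A27 rose at day 16 and fell again at day 19. SLC25A48, described for choline in human and mouse cells, had no read at day 6 and reads in all 6 later libraries. The ADP/ATP and phosphate carriers that held the largest share of the family's counts passed the test in no comparison of all 9 libraries.

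Between day 16 and day 6, 6 of 37 members were called (16.2%), and the background was 8.86% of all tested genes. The 4 called higher at day 16, SLC25A27, SLC25A28, SLC25A38 and SLC25A48, compare with 5.12% of all genes, and the 2 called lower, SLC25A25 and SLC25A35, with 3.74%. Between day 19 and day 16, 1 of 37 members was called (2.70%), and the background was 1.20% of all genes, 0.516% higher and 0.683% lower. That member was SLC25A27, lower at day 19. At an unadjusted p under 0.05 the comparison held 8 members, against 3946 of all 16098 tested genes. DESeq2 called 4 members there, where its background was 10.9%. Between day 19 and day 6, 9 of 37 members were called (24.3%), close to the background of 22.9%, with 5 higher and 4 lower at day 19 (all genes 12.7% and 10.2%). One of the called members, SLC25A48, passed the low-count filter only through libraries of days 16 and 19, so its place among the tested genes already required a difference. The median log2 fold change of the tested members was -0.03 for day 16 against day 6, -0.12 for day 19 against day 16 and -0.26 for day 19 against day 6, while the median of all tested genes was 0.02 for day 19 against day 6 and nearer to 0 in the other two. Libraries of day 16 and day 6 did not overlap for 16 of 37 members (43.2%), 8 higher and 8 lower at day 16, where the background was 38.7%, with 19.9% higher and 18.8% lower. For day 19 against day 16 this held for 8 members (21.6%), 4 higher and 4 lower, where the background was 23.9%, with 11.9% higher and 12.0% lower. For day 19 against day 6 it held for 16 members (43.2%), 7 higher and 9 lower, where the background was 38.5%, with 19.6% higher and 18.9% lower. The 3 comparisons share libraries and are not independent of each other. Fits without day 19 replicate 1, used below, keep only replicates 2 and 3 of that day. They called 44.7% of all genes between day 19 and day 16, 54.2% between day 19 and day 6 and 20.4% between day 16 and day 6.

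**Figure D1:**
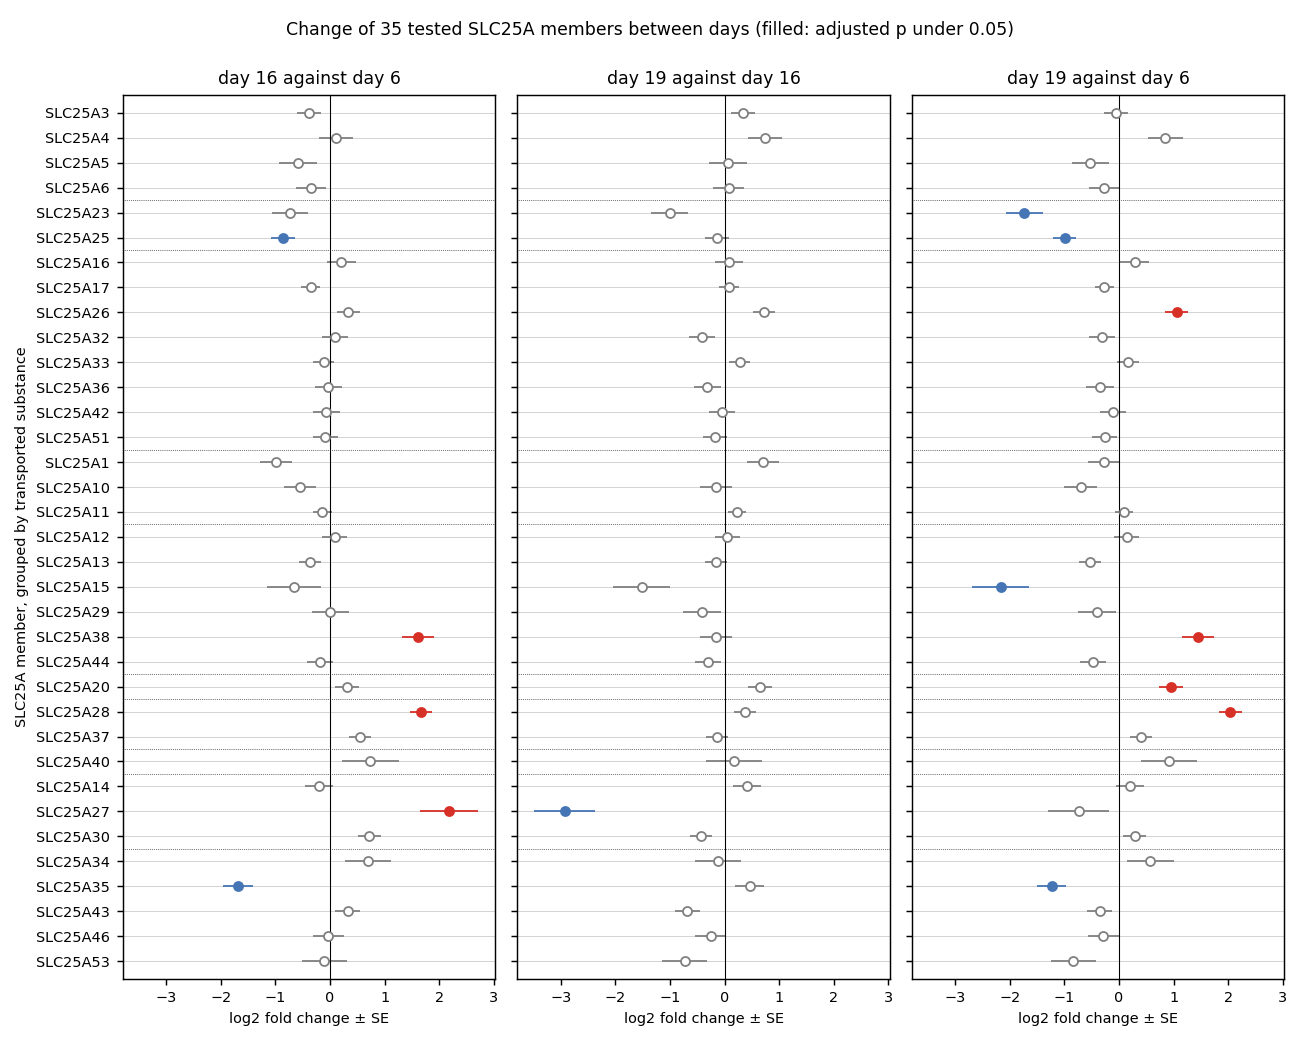
Log2 fold change ± SE of 35 tested SLC25A members (rows, grouped by transported substance) in the 3 comparisons of days (panels, 3 libraries per day), with red for higher, blue for lower and filled points for an adjusted p under 0.05. Most members lie near 0 in every panel, and SLC25A28 and SLC25A38 stand to the right in both comparisons with day 6. SLC25A48 is left out because its day 6 counts are 0.

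Mitochondrial iron import rests on the mitoferrins, SLC25A37 (mitoferrin 1, best known from red cell precursors) and SLC25A28 (mitoferrin 2, found in many cell types). SLC25A28 stood at 37.0, 37.8 and 36.3 CPM, normalized here and throughout by TMM, a trimmed-mean scaling factor per library, at day 6, at 113, 149.6 and 90.7 CPM at day 16 and at 132, 158 and 166 CPM at day 19. All 6 later libraries lay above all 3 of day 6, and replicate 2 was the highest and replicate 3 the lowest at day 16. The means were 37.0 ± 0.760 CPM at day 6, 118 ± 29.7 CPM at day 16 and 152 ± 17.6 CPM at day 19 (SD, n = 3 each). By the edgeR quasi-likelihood test, SLC25A28 was 3.18-fold higher at day 16 than at day 6 (log2 fold change 1.67, SE 0.21, Benjamini-Hochberg adjusted p = 0.00111) and 4.11-fold higher at day 19 than at day 6 (log2 2.04, SE 0.21, adjusted p = 0.000289). The step to day 19 over day 16 did not pass (log2 0.37, SE 0.20, adjusted p = 0.267). Both rises over day 6 passed under all 18 alternative settings.

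SLC25A37 was called by edgeR in no comparison of all 9 libraries. Its level was 39.9, 40.5 and 34.1 CPM at day 6, 50.8, 69.3 and 47.2 CPM at day 16 and 49.0, 44.0 and 58.4 CPM at day 19. The later libraries were all above those of day 6, by a margin that did not pass the edgeR test at day 16 (log2 0.55, SE 0.20, adjusted p = 0.139) or at day 19 (log2 0.40, SE 0.20, adjusted p = 0.167). The difference at day 16 passed with the libraries of days 16 and 6 alone (adjusted p = 0.0494), and both passed in limma voom with quality weights (adjusted p = 0.0231 and 0.0416). Of 8 listed markers of red cell precursors, where mitoferrin 1 is abundant, 4 were in the table and none passed the low-count filter. Of these 4, HBM and ALAS2 were at 0 in all 9 libraries, and the 4 summed to at most 1.27 CPM. Of 11 tested genes of mitochondrial iron, heme and iron-sulfur cluster handling, none was called at day 16 against day 6 (edgeR; 0 at an unadjusted p under 0.05, 0 by DESeq2 and 0 by limma voom with quality weights), and at day 19 against day 6 edgeR called 1, GLRX5, a glutaredoxin of iron-sulfur cluster assembly, as higher (log2 1.20, SE 0.28, adjusted p = 0.0145). The GLRX5 call was lost without day 6 replicate 1, day 6 replicate 3 or day 19 replicate 3 (adjusted p up to 0.0601). At day 19 against day 6, 3 of the 11 had an unadjusted p under 0.05, DESeq2 called 1 and limma voom 6, all higher. Of all 16098 tested genes, 6138 had an unadjusted p under 0.05 there, DESeq2 called 4932 and limma voom 9433. For day 19 against day 16 edgeR called none (4 at an unadjusted p under 0.05, 1 higher by DESeq2 and 5 higher by limma voom). The counts over all tested genes there were 3946, 1756 and 7354.

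SLC25A38 imports glycine, a starting substance of heme synthesis. It stood at 27.2, 32.7 and 36.3 CPM at day 6, 81.7, 145 and 66.6 CPM at day 16 and 71.6, 104 and 87.4 CPM at day 19. Every later library lay above every day 6 library, and day 16 replicate 2 was the highest of all 9. SLC25A38 was 3.04-fold higher at day 16 than at day 6 (edgeR log2 1.61, SE 0.29, Benjamini-Hochberg adjusted p = 0.00935) and 2.73-fold higher at day 19 than at day 6 (log2 1.45, SE 0.29, adjusted p = 0.00797), and both calls passed under all 18 alternatives. Day 19 and day 16 overlapped (log2 -0.15, adjusted p = 0.748).

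Several measures moved beside these rises. SLC25A28 belongs to interferon response gene sets described in human cells, and 2 interferon-stimulated genes were chosen for display after their values were seen. ISG15 stood at 4.92, 2.78 and 6.24 CPM at day 6, 892, 1522 and 478 CPM at day 16 and 1989, 2644 and 2289 CPM at day 19. MX1 stood at 43.9, 23.3 and 42.0 CPM at day 6, 1259, 2169.6 and 884 CPM at day 16 and 3323, 2734 and 2415 CPM at day 19. The 6 epithelial markers summed to 516 to 540 CPM at day 6, 1074 to 1167 CPM at day 16 and 801 to 1212 CPM at day 19, and CLDN4 and MAL2 were the 2 of 6 called higher by edgeR at each later day against day 6. Another of the 6, KRT18, averaged 56.3 ± 1.00 CPM at day 6, 35.5 ± 3.28 CPM at day 16 and 64.8 ± 35.3 CPM at day 19 (SD, n = 3 each). Its day 16 libraries were all below those of day 6 (edgeR log2 -0.66, SE 0.39, adjusted p = 0.398), and limma voom called it lower at day 16. The 7 leukocyte markers summed to 243 to 387 CPM at day 6, 319 to 400 CPM at day 16 and 488 to 596 CPM at day 19, with CD14 called higher at both later days and CSF1R at day 19. The 7 fibroblast markers summed to 29035 to 32004 CPM at day 6, 17973 to 22364 CPM at day 16 and 19131 to 28483 CPM at day 19. None was called in edgeR between day 16 and day 6 (3 at an unadjusted p under 0.05, 2 lower by DESeq2 and 3 by limma voom). Of all 16098 tested genes, 3403 had an unadjusted p under 0.05 in that comparison, DESeq2 called 2274 and limma voom 3811. The 4 endothelial markers summed to 770 to 956 CPM at day 6, 995 to 1279 CPM at day 16 and 604 to 696 CPM at day 19. The part of the interferon response and of these cell types in the carrier changes was not tested.

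**Figure D2:**
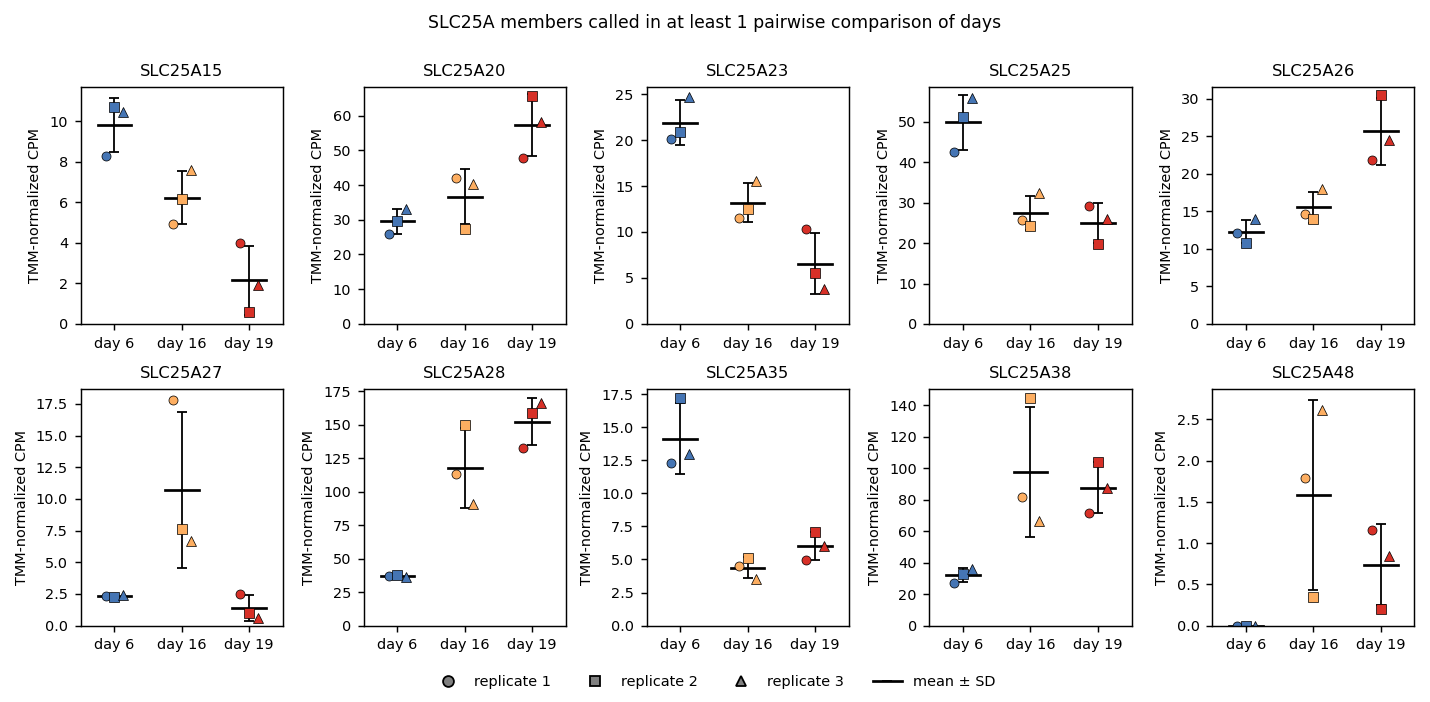
Normalized CPM (vertical axes, from 0) of the 10 SLC25A members called in at least 1 comparison, per library at days 6, 16 and 19 (symbols mark replicates 1 to 3, bars the mean ± SD, n = 3). SLC25A28 and SLC25A38 step up at day 16 and remain up at day 19, SLC25A27 is high at day 16 alone, and SLC25A15 and SLC25A23 are lowest at day 19.

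The ATP-Mg/phosphate carriers, which calcium regulates and which set the adenine nucleotide content of the matrix, include SLC25A23 and SLC25A25, and both tested members with these symbols were called lower at day 19 than at day 6, where 10.2% of all genes were. A tested row without a carrier symbol, LOC102189365, is the ATP-Mg/phosphate carrier SLC25A24 by its symbol in ARS1.2 and was not called (edgeR log2 0.21, SE 0.40, adjusted p = 0.719, for day 19 against day 6). SLC25A23 stood at 20.1, 20.9 and 24.7 CPM at day 6, 11.5, 12.5 and 15.6 CPM at day 16 and 10.3, 5.59 and 3.81 CPM at day 19. No library of any day overlapped with another day, with the levels descending over the days. SLC25A23 was lower at day 19 than at day 6 by a log2 fold change of -1.73 (edgeR, SE 0.34, Benjamini-Hochberg adjusted p = 0.00684), a call that passed under all 18 alternatives, while neither the step to day 16 over day 6 (log2 -0.73, adjusted p = 0.241) nor the step to day 19 over day 16 (log2 -1.005, adjusted p = 0.128) passed. Both steps passed without day 19 replicate 1, with log2 fold changes of -0.73 (adjusted p = 0.0256) and -1.47 (adjusted p = 0.00106).

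SLC25A25, the second carrier of this class, was already lower at day 16. It stood at 42.4, 51.3 and 55.9 CPM at day 6, 25.7, 24.3 and 32.4 CPM at day 16 and 29.2, 19.7 and 25.9 CPM at day 19. The day 6 libraries were all above the later ones, and days 16 and 19 overlapped. Its log2 fold change was -0.86 at day 16 against day 6 (edgeR, SE 0.21, Benjamini-Hochberg adjusted p = 0.0357) and -0.999 at day 19 against day 6 (SE 0.22, adjusted p = 0.0104). The day 16 call was lost on leaving out any 1 library of day 6 or day 16, with adjusted p between 0.0535 and 0.151. It was also lost with the replicate number as a block (adjusted p = 0.0608). The day 19 call stood at the threshold without day 6 replicate 3 (adjusted p = 0.05004). A further member of this kind, SLC25A41, had 24 counts over all libraries and was not tested; in the reference assembly ARS1.2 it lies directly before SLC25A23 among protein-coding genes.

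ADP/ATP carriers exchange matrix ATP for cytosolic ADP, and SLC25A3 brings in the phosphate that ATP synthase needs. SLC25A6, SLC25A5, SLC25A4 and SLC25A3 together held 34.8% to 53.0% of all counts of the family in a library. SLC25A6 stood at 528, 492 and 549 CPM at day 6, 429, 364 and 439 CPM at day 16 and 254, 560.3 and 482 CPM at day 19. The lowest of its 9 libraries, day 19 replicate 1, and the highest, day 19 replicate 2, came from the same day. None of its comparisons passed (edgeR log2 -0.35, 0.07 and -0.27 for day 16 against day 6, day 19 against day 16 and day 19 against day 6, with adjusted p = 0.573, 0.881 and 0.491).

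SLC25A5, the ADP/ATP carrier of dividing cells, stood at 85.2, 112 and 101 CPM at day 6, 95.7, 66.2 and 35.97 CPM at day 16 and 46.1, 84.0 and 76.4 CPM at day 19. The days overlapped except for day 19 against day 6, where all 3 libraries of day 19 were lower without passing the edgeR test (log2 -0.53, SE 0.34, adjusted p = 0.282). SLC25A3 stood at 206, 242 and 229 CPM at day 6, 205, 164 and 149 CPM at day 16 and 155, 252 and 246 CPM at day 19. Its day 16 libraries were all below those of day 6, a difference that did not pass (log2 -0.39, SE 0.22, adjusted p = 0.387).

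SLC25A4 is the ADP/ATP carrier of heart and muscle. It stood at 63.2, 119 and 104 CPM at day 6, 122, 89.6 and 97.5 CPM at day 16 and 107, 177 and 232 CPM at day 19. The days overlapped, with day 6 replicate 1 the lowest and day 19 replicate 3 the highest. The log2 fold change of SLC25A4 at day 19 against day 6 was 0.85 (edgeR, SE 0.32, adjusted p = 0.0791), and it passed in DESeq2 (adjusted p = 0.0458). The same 2 libraries were the lowest and highest in the summed level of 7 smooth muscle markers, 9192 and 43756 CPM, where the other 7 libraries lay between 20787 and 33890 CPM. Without day 19 replicate 1, SLC25A4 was higher at day 19 than at day 16 (log2 1.002, adjusted p = 0.0110) and than at day 6 (log2 1.11, adjusted p = 0.00518). Of the 7 markers, edgeR and DESeq2 called 1, DES, higher at day 19 than at day 6, and limma voom called 2, DES and TAGLN. EdgeR called 12.7% of all genes higher there, and none of the 7 between day 19 and day 16. The part of smooth muscle in the SLC25A4 values was not tested. SLC25A4, SLC25A5 and SLC25A6 are close in coding sequence, and how reads matching more than 1 gene were counted is not given in the sources used here, so the split among them is uncertain. The testis form, SLC25A31, had 1 count in 1 library and was not tested.

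**Figure D3:**
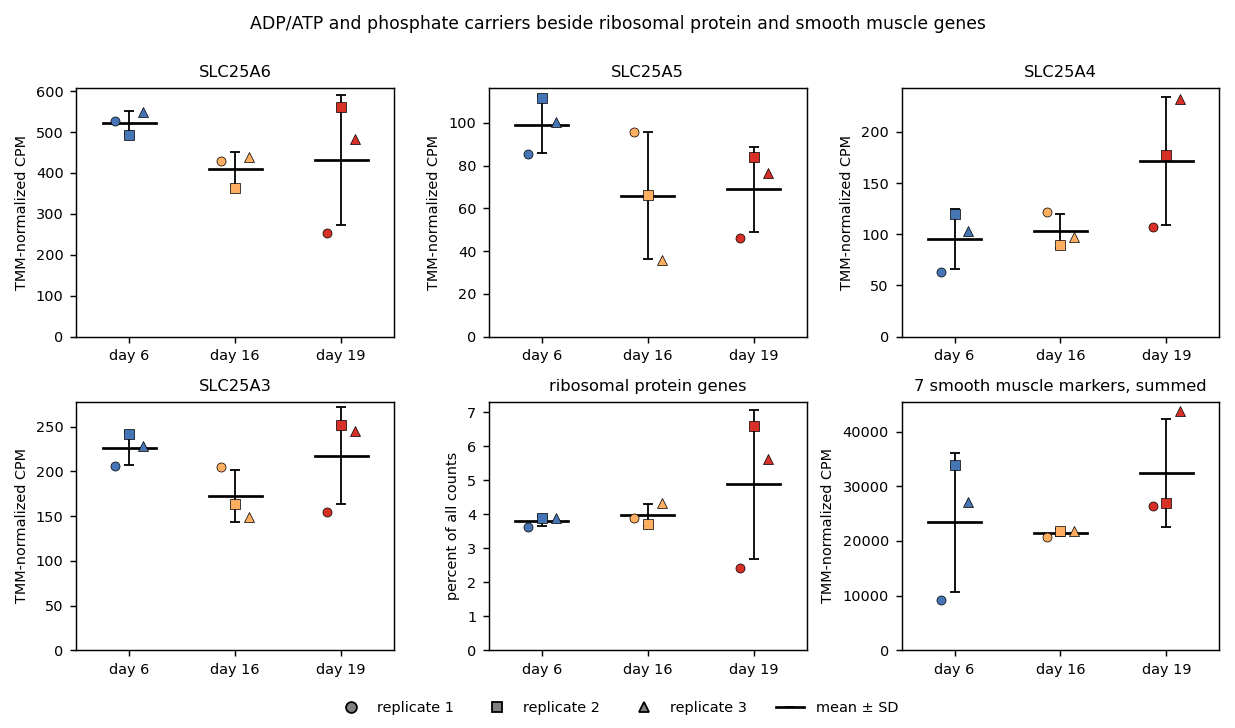
Normalized CPM of SLC25A6, SLC25A5, SLC25A4 and SLC25A3 per library (symbols mark replicates, bars mean ± SD, n = 3 per day), beside the percent of counts in 75 ribosomal protein genes and the summed CPM of 7 smooth muscle markers; all vertical axes start at 0. Day 19 replicate 1 is the lowest day 19 library for the 4 carriers and for the ribosomal protein genes, and SLC25A4 is lowest and highest in the same libraries as the smooth muscle sum.

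Citrate leaves the mitochondria through SLC25A1 and gives cytosolic acetyl-CoA for lipid synthesis. SLC25A1 stood at 50.2, 53.1 and 41.3 CPM at day 6, 23.5, 27.6 and 22.2 CPM at day 16 and 22.9, 42.5 and 54.3 CPM at day 19. Day 16 lay below day 6 in every library, and day 19 was split, with replicate 1 at the day 16 level and the other two at or near that of day 6. The difference between day 16 and day 6 missed the threshold in edgeR (log2 -0.98, SE 0.29, Benjamini-Hochberg adjusted p = 0.0695) and passed in DESeq2 (adjusted p = 0.0190). It also passed without day 19 replicate 1 (adjusted p = 0.00224) and without day 19 replicate 3 (adjusted p = 0.0498). SLC25A1 was higher at day 19 than at day 16 once day 19 replicate 1 was left out (log2 1.001, adjusted p = 0.00129), against a log2 of 0.71 and adjusted p = 0.177 with all libraries.

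The dicarboxylate carrier SLC25A10 averaged 17.4 ± 3.11 CPM at day 6, 12.0 ± 3.87 CPM at day 16 and 10.7 ± 2.78 CPM at day 19, and the oxoglutarate/malate carrier SLC25A11 66.9 ± 6.66, 60.8 ± 2.29 and 71.3 ± 12.2 CPM (SD, n = 3 each). Neither was called by edgeR in any comparison of all 9 libraries, and without day 19 replicate 1 SLC25A11 was called higher at day 19 than at day 16 (log2 0.38, adjusted p = 0.0300). The oxodicarboxylate carrier SLC25A21 had 61 counts over 9 libraries and was not tested. Of 10 enzymes of the malate-aspartate shuttle and of citrate export, cytosolic aconitase ACO1, which doubles as an iron sensor, was lower at day 16 than at day 6 (edgeR log2 -0.81, SE 0.15, adjusted p = 0.0108), at day 19 than at day 16 (log2 -0.84, adjusted p = 0.0461) and at day 19 than at day 6 (log2 -1.65, adjusted p = 0.000219). IDH1, the cytosolic isocitrate dehydrogenase, was lower at day 19 than at day 6 (log2 -0.97, SE 0.26, adjusted p = 0.0240), and none of the 10 was called higher by edgeR or DESeq2 (2 at day 19 by limma voom). The median of the 10 was -0.37 for day 16 against day 6, 0.14 for day 19 against day 16 and -0.14 for day 19 against day 6. The ACO1 call at day 19 against day 16 was lost on leaving out any 1 library other than day 19 replicate 1 (adjusted p up to 0.175), and that at day 16 against day 6 without day 6 replicate 2, day 16 replicate 1 or day 16 replicate 2 (up to 0.0587). The IDH1 call was lost without day 6 replicate 1, day 6 replicate 2 or day 19 replicate 3 (up to 0.0837).

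Among the amino acid carriers, the aspartate/glutamate exchangers of the malate-aspartate shuttle passed in no edgeR comparison. SLC25A12 averaged 39.2 ± 4.96 CPM at day 6, 41.5 ± 8.56 CPM at day 16 and 43.1 ± 10.6 CPM at day 19, with overlap between all days and adjusted p of at least 0.694. SLC25A13 averaged 30.6 ± 2.00 CPM at day 6, 23.7 ± 4.504 CPM at day 16 and 21.2 ± 2.92 CPM at day 19. All day 19 libraries of SLC25A13 were below all day 6 libraries, which did not pass in edgeR (log2 -0.53, SE 0.20, adjusted p = 0.0832) and passed in DESeq2 (adjusted p = 0.0490).

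SLC25A15 exchanges ornithine for citrulline across the inner membrane, a step of the urea cycle and of arginine and polyamine metabolism. It stood at 8.26, 10.7 and 10.4 CPM at day 6, 4.95, 6.15 and 7.57 CPM at day 16 and 3.98, 0.599 and 1.90 CPM at day 19. All 3 days were free of overlap, descending from day 6, and day 19 replicate 1 was the highest of its day. SLC25A15 was lower at day 19 than at day 6 (edgeR log2 -2.17, SE 0.53, Benjamini-Hochberg adjusted p = 0.0173), and the lower level at day 19 than at day 16 did not pass (log2 -1.52, SE 0.52, adjusted p = 0.134). Both passed once day 19 replicate 1 was left out, with log2 fold changes of -2.95 (adjusted p = 0.000463) and -2.30 (adjusted p = 0.00250). The call against day 6 was lost without day 6 replicate 2 (adjusted p = 0.0541), day 6 replicate 3 (0.0564) or day 19 replicate 3 (0.0558). It was also lost in a fit of days 19 and 6 alone (0.0531).

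The basic amino acid carrier SLC25A29 and the branched-chain amino acid carrier SLC25A44 passed by edgeR in no comparison of all 9 libraries. SLC25A29 averaged 26.1 ± 2.96, 26.3 ± 4.68 and 19.7 ± 9.53 CPM at days 6, 16 and 19, and SLC25A44 37.5 ± 3.41, 33.1 ± 2.18 and 26.8 ± 9.08 CPM. Without day 19 replicate 1, SLC25A44 was called lower at day 19 than at day 16 (log2 -0.60, adjusted p = 0.00950) and than at day 6 (log2 -0.78, adjusted p = 0.00191). Limma voom on all libraries called both carriers lower at day 19 in these comparisons. SLC25A47, which directly follows SLC25A29 among protein-coding genes of ARS1.2, had 1 count in 1 library.

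SLC25A20 exchanges acylcarnitine for carnitine and so brings long-chain fatty acids to beta oxidation. It stood at 25.8, 29.7 and 33.1 CPM at day 6, 41.9, 27.5 and 40.4 CPM at day 16 and 47.8, 65.6 and 58.2 CPM at day 19. Day 19 lay above both earlier days in all 3 libraries, and days 6 and 16 overlapped. SLC25A20 was 1.94-fold higher at day 19 than at day 6 (edgeR log2 0.95, SE 0.22, Benjamini-Hochberg adjusted p = 0.0137), a call lost without day 6 replicate 1 (adjusted p = 0.0584) or replicate 2 (0.0513). The difference of day 19 from day 16 passed, among the edgeR fits, only without day 19 replicate 1 (log2 0.77, adjusted p = 0.00926), and had an adjusted p of 0.130 with all libraries.

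Around SLC25A20, 12 genes of the carnitine shuttle and beta oxidation split. ACADM, the medium-chain acyl-CoA dehydrogenase, averaged 12.0 ± 1.30 CPM at day 6, 26.5 ± 3.33 CPM at day 16 and 32.1 ± 7.64 CPM at day 19. It was called higher at day 16 than at day 6 (edgeR log2 1.13, adjusted p = 0.0127) and higher at day 19 than at day 6 (log2 1.42, adjusted p = 0.00247). CPT1B, the muscle form of the outer membrane carnitine palmitoyltransferase, was lower at day 16 (log2 -1.66, adjusted p = 0.00746) and at day 19 (log2 -1.74, adjusted p = 0.00341) than at day 6. The other 10 passed in none of the 3 comparisons in edgeR, and the median of all 12 was -0.09 for day 16 against day 6, 0.26 for day 19 against day 16 and 0.16 for day 19 against day 6. At an unadjusted p under 0.05 the counts were 2, 2 and 5 in the same order, DESeq2 called 2, 1 and 3, and limma voom called 4, 6 and 7. Over all 16098 tested genes these were 3403, 3946 and 6138 unadjusted, 2274, 1756 and 4932 by DESeq2, and 3811, 7354 and 9433 by limma voom. DESeq2 and limma voom both called CPT1A lower at day 19 than at day 16 and than at day 6. Leaving out day 6 replicate 3 or day 16 replicate 2 ended the ACADM call at day 16 (adjusted p up to 0.0732).

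SLC25A26 carries S-adenosylmethionine, used in mitochondrial RNA methylation and in lipoate and ubiquinone pathways, into the matrix. It stood at 12.2, 10.8 and 13.9 CPM at day 6, 14.6, 14.0 and 17.9 CPM at day 16 and 21.9, 30.6 and 24.5 CPM at day 19. No library of day 19 overlapped with either earlier day, and each day lay above the one before it. SLC25A26 was 2.08-fold higher at day 19 than at day 6 (edgeR log2 1.06, SE 0.21, Benjamini-Hochberg adjusted p = 0.00744) under all 18 alternatives, and its difference between day 19 and day 16 had an adjusted p of 0.0985 (log2 0.72), or 0.00552 without day 19 replicate 1 (log2 0.84).

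The folate carrier SLC25A32 stood at 19.7, 18.4 and 24.4 CPM at day 6, 23.5, 20.7 and 22.4 CPM at day 16 and 20.9, 17.6 and 11.6 CPM at day 19. The days overlapped, day 19 replicate 3 was the lowest, and no comparison passed with all libraries (adjusted p of at least 0.298). SLC25A32 was, without day 19 replicate 1, lower at day 19 than at day 16 (log2 -0.59, adjusted p = 0.0436). Of 6 tested enzymes that use folate in the matrix, 3 were called lower at day 19 than at day 6, where 10.2% of all genes were, and none was called higher. The median log2 fold change of the 6 was -0.54 at day 16 and -1.12 at day 19, each against day 6. MTHFD2, the methylenetetrahydrofolate dehydrogenase of growing cells, averaged 257 ± 1.80 CPM at day 6, 49.8 ± 5.96 CPM at day 16 and 51.3 ± 12.3 CPM at day 19 (edgeR log2 -2.37 and adjusted p = 0.000244 for day 16 against day 6, log2 -2.32 and adjusted p = 0.000148 for day 19 against day 6). SARDH, which oxidises sarcosine, was lower at day 16 (log2 -0.92, adjusted p = 0.0387) and day 19 (log2 -2.06, adjusted p = 0.000586) than at day 6. ALDH1L2, the formyltetrahydrofolate dehydrogenase, was lower at day 19 than at day 16 (log2 -1.24, adjusted p = 0.0377) and than at day 6 (log2 -1.80, adjusted p = 0.000481). The calls of ALDH1L2 against day 16 and of SARDH at day 16 were each lost without most single libraries, 8 and 7 of 9 (adjusted p up to 0.170 and 0.141), and kept without day 19 replicate 1.

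A further 6 carriers of nucleotides and cofactors were not called by edgeR in any comparison of all 9 libraries. They were the pyrimidine nucleotide carriers SLC25A33 and SLC25A36, the coenzyme A carriers SLC25A16 and SLC25A42, the peroxisomal SLC25A17 and the NAD carrier SLC25A51. Among them, all day 16 (36.2, 25.9 and 30.9 CPM) and day 19 libraries (35.6, 32.5 and 30.6 CPM) of SLC25A17 were below those of day 6 (37.9, 40.0 and 41.1 CPM), with adjusted p of 0.304 and 0.290. Without day 19 replicate 1, SLC25A36 was called lower at day 19 than at day 16 (log2 -0.68, adjusted p = 0.00204) and than at day 6 (log2 -0.72, adjusted p = 0.00114), and SLC25A51 lower than at day 6 (log2 -0.47, adjusted p = 0.0455). Of the 6, SLC25A42 had the smallest differences, with 10.4 ± 0.593, 9.95 ± 1.47 and 9.64 ± 2.39 CPM at days 6, 16 and 19.

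Uncoupling proteins let protons leak across the inner membrane, and SLC25A27 (UCP4), SLC25A14 (UCP5) and SLC25A30 (KMCP1) are their relatives. SLC25A27, known mainly from neurons, was low in number: the 3 libraries of day 6 held 22 to 25 counts each. Replicates 1, 2 and 3 of day 16 held 169, 67 and 74 counts, and those of day 19 held 26, 10 and 6. In normalized CPM these were 2.32, 2.27 and 2.44 at day 6, 17.8, 7.63 and 6.67 at day 16 and 2.53, 0.998 and 0.635 at day 19. The day 16 libraries were above all others, with replicate 1 more than double the other two, and days 6 and 19 overlapped. SLC25A27 was 4.55-fold higher at day 16 than at day 6 (edgeR log2 2.19, SE 0.53, Benjamini-Hochberg adjusted p = 0.0327) and lower at day 19 than at day 16 (log2 -2.93, SE 0.56, adjusted p = 0.0468).

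Both calls of SLC25A27 depended on single libraries. The rise was lost without any 1 library of day 6 (adjusted p = 0.110 to 0.120), without day 16 replicate 1 (log2 1.61, adjusted p = 0.135) and without day 16 replicate 2 (adjusted p = 0.0606). The fall passed without day 19 replicate 1 (log2 -3.67, adjusted p = 0.000615) and was lost on leaving out any 1 of the other 8 libraries. Without day 19 replicate 1 its level at day 19 was also below that of day 6 (log2 -1.49, adjusted p = 0.0438), against log2 -0.74 and adjusted p = 0.351 with all libraries.

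SLC25A30 stood at 39.3, 43.1 and 48.6 CPM at day 6, 69.3, 77.0 and 68.8 CPM at day 16 and 69.0, 40.1 and 50.4 CPM at day 19. All day 16 libraries were above all day 6 libraries, which missed the threshold in edgeR (log2 0.72, SE 0.21, adjusted p = 0.0672) and passed in DESeq2 (adjusted p = 0.0210), without day 19 replicate 1 (0.00408) and without day 19 replicate 2 (0.0412). SLC25A14 averaged 5.64 ± 0.587, 4.92 ± 0.381 and 6.52 ± 1.14 CPM at days 6, 16 and 19 and passed in no comparison.

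UCP2, the uncoupling protein of the same family that carries no SLC25A symbol in the table, had the opposite course to SLC25A27. It stood at 108, 159 and 140.3 CPM at day 6, 56.7, 34.3 and 24.2 CPM at day 16 and 119, 119.5 and 178 CPM at day 19. The day 16 libraries were below all others, and days 6 and 19 overlapped. UCP2 was lower at day 16 than at day 6 (edgeR log2 -1.82, SE 0.32, adjusted p = 0.00777) and higher at day 19 than at day 16 (log2 1.86, SE 0.32, adjusted p = 0.0449). The second call was lost on leaving out any 1 library other than day 19 replicate 1 (adjusted p up to 0.175), and the first was kept without any 1 library.

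SLC25A35 is an orphan, a carrier whose substrate is not settled. It stood at 12.3, 17.2 and 12.97 CPM at day 6, 4.53, 5.13 and 3.52 CPM at day 16 and 4.95, 7.09 and 6.03 CPM at day 19. All day 6 libraries were above all later ones, and days 16 and 19 overlapped. SLC25A35 was lower at day 16 than at day 6 (edgeR log2 -1.69, SE 0.27, Benjamini-Hochberg adjusted p = 0.00449), under all 18 alternatives, and lower at day 19 than at day 6 (log2 -1.23, SE 0.26, adjusted p = 0.0104), a call lost without day 6 replicate 2 (adjusted p = 0.0509).

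SLC25A48 had 17, 3 and 29 counts at day 16 and 12, 2 and 8 at day 19 in replicates 1, 2 and 3, and 0 counts in each day 6 library. Replicate 2 was the lowest of both later days. Set against a floor of 3 counts over the day 6 group, SLC25A48 was at least 17.1-fold higher at day 16 and at least 7.57-fold higher at day 19, bounds that cover counting error only. SLC25A48 passed the low-count filter only through libraries of days 16 and 19, so being tested already required a difference from day 6. Under that limit, the edgeR adjusted p was 0.0303 for day 16 and 0.0390 for day 19, each against day 6. Neither value is separate support for a rise. The day 16 call was lost without any 1 library of day 6 (adjusted p = 0.0796 to 0.0875) and without day 16 replicate 1 (0.0860) or 3 (0.0838). The day 19 call was lost without the same 5 libraries (adjusted p up to 0.0891) and without day 19 replicate 3 (0.0849).

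The others were not called by edgeR in any comparison of all 9 libraries. SLC25A46, an outer membrane protein of mitochondrial fusion and lipid supply, averaged 36.3 ± 0.878, 35.5 ± 5.19 and 29.8 ± 13.1 CPM at days 6, 16 and 19, and the orphan SLC25A43 12.7 ± 1.41, 15.9 ± 3.46 and 9.88 ± 1.20 CPM. SLC25A34 and SLC25A53, both orphans, stayed under 7 CPM in every library. Without day 19 replicate 1, SLC25A46, SLC25A43 and SLC25A53 were called lower at day 19 than at day 16 (adjusted p = 0.00653, 0.0177 and 0.00971), and SLC25A46 and SLC25A53 also than at day 6 (adjusted p = 0.00392 and 0.00519). SLC25A45 had 1 count in 1 library and was not tested. SLC25A40, which imports glutathione, stood at 31.5, 19.2 and 22.8 CPM at day 6, 39.0, 40.1 and 43.7 CPM at day 16 and 94.1, 23.6 and 20.8 CPM at day 19. Its day 16 libraries were all above those of day 6 (edgeR log2 0.74, SE 0.51, adjusted p = 0.498), and at day 19 replicate 1 alone was above every other library. With day 19 replicate 1 left out, SLC25A40 was higher at day 16 than at day 6 (adjusted p = 0.0197) and lower at day 19 than at day 16 (log2 -0.87, adjusted p = 0.00821). A row described in the table as like SLC25A40, LOC102171775, may share reads with it.

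Within day 19, the carriers divided between replicate 1 and the other libraries in both directions. Replicate 1 was more than 1.5-fold above both others for 8 of 37 tested members (SLC25A15, SLC25A23, SLC25A27, SLC25A36, SLC25A40, SLC25A44, SLC25A46 and SLC25A53) and more than 1.5-fold below both for 6 (SLC25A1, SLC25A3, SLC25A4, SLC25A5, SLC25A6 and SLC25A34). That was 37.8% of the members, against 48.6% of all tested genes. The log2 ratio of replicate 1 to the mean of the other two was 2.08 for SLC25A40, 1.59 for SLC25A15 and 1.52 for SLC25A27. It was -1.07 for SLC25A1 and -1.04 for SLC25A6. SLC25A6 took 15.7% of the family's counts in replicate 1, against 20.6% to 30.3% in the other 8 libraries.

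**Figure D4:**
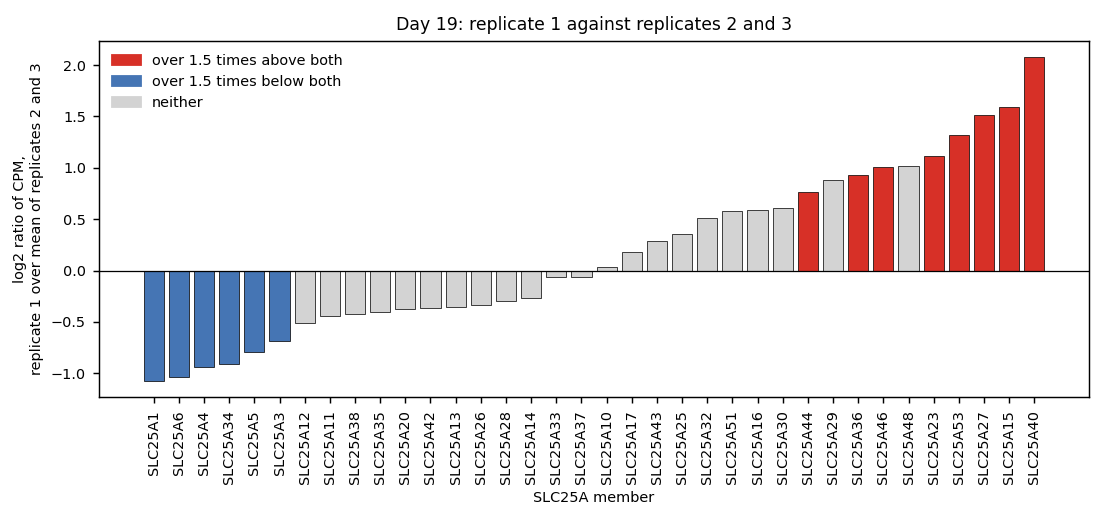
Log2 ratio of CPM in day 19 replicate 1 to the mean of replicates 2 and 3 (vertical axis) for 36 tested SLC25A members (horizontal axis), coloured where replicate 1 lay over 1.5 times above (red) or below (blue) both. The ADP/ATP, phosphate and citrate carriers stand at the low end, and SLC25A40, SLC25A15 and SLC25A27 at the high end.

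Without that library, 17 of 37 members were called between day 19 and day 16, where the background was 44.7%, and 16 of 37 between day 19 and day 6, where it was 54.2%. Between day 16 and day 6, 10 members were called against a background of 20.4%. The 6 higher at day 19 than at day 16 (background 21.6%) were SLC25A1, SLC25A3, SLC25A4, SLC25A11, SLC25A20 and SLC25A26. The other 11 were lower (background 23.1%): SLC25A15, SLC25A23, SLC25A27, SLC25A30, SLC25A32, SLC25A36, SLC25A40, SLC25A43, SLC25A44, SLC25A46 and SLC25A53. Limma voom with sample quality weights on all 9 libraries called 19 members in that comparison, where it called 45.7% of all genes, and edgeR called 1. The cause of the split within day 19 was not tested.

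**Figure D5:**
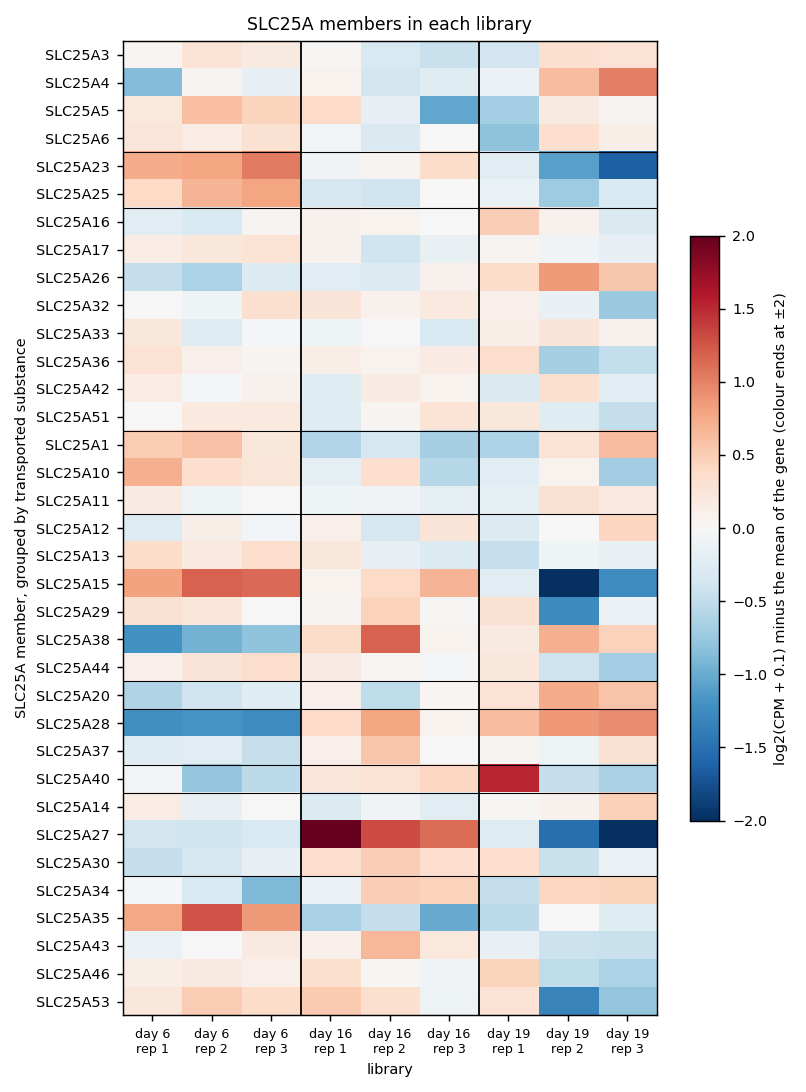
Level of 35 tested SLC25A members (rows, grouped by transported substance) in each of the 9 libraries (columns, by day), as log2(CPM + 0.1) minus the mean of the gene, from blue (lower) to red (higher), with colours ending at 2 in either direction. Day 19 replicate 1 differs from its neighbours in many rows, and SLC25A28 and SLC25A38 are red in the day 16 and day 19 libraries.

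Other mitochondrial genes gave the setting of these changes. The 13 protein genes of the mitochondrial genome took 2.91% to 3.27% of the counts of a day 6 library. Their share was 1.94% to 2.11% in day 16 libraries and 0.639% to 1.54% in day 19 libraries, with day 19 replicate 1 the lowest. None of the 13 was called between day 16 and day 6 in edgeR (3 at an unadjusted p under 0.05, 3 lower by DESeq2 and 8 by limma voom). At day 19, 2 were called lower than at day 16 (ND4L and ND5), where 0.683% of all genes were. A total of 7 were called lower at day 19 than at day 6, where 10.2% of all genes were. The median log2 fold change of the 13 was -0.54, -0.51 and -1.20 in the 3 comparisons in that order. On leaving out 1 library, the calls of ND4, ND4L and ND5 against day 6 were kept throughout. Those of COX1, COX3, ATP8 and CYTB were lost without 3, 5, 1 and 8 of the 9 libraries, those of ND4L and ND5 against day 16 without 3 and 8, and all were kept without day 19 replicate 1. Genes that regulate mitochondrial biogenesis had no edgeR call among 12 tested in any comparison. At an unadjusted p under 0.05 the counts were 2, 1 and 4 in the same order, DESeq2 called 0, 0 and 2, and limma voom called 2, 5 and 7. The matching counts over all tested genes, for this list and the mitochondrial genome, are given above beside the carnitine shuttle genes.

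The carriers reach the inner membrane through a shared import path. Of 15 tested subunits of the TOM complex, the small TIM chaperones and TIM22, none was called by edgeR between day 16 and day 6 (0 at an unadjusted p under 0.05, 0 by DESeq2 and 0 by limma voom) or between day 19 and day 16 (5 at an unadjusted p under 0.05, 3 higher by DESeq2 and 9 by limma voom). For day 19 against day 16, 3946 of all 16098 tested genes had an unadjusted p under 0.05, DESeq2 called 10.9% and limma voom 45.7%. At day 19, 3 of the 15 subunits were called higher than at day 6, where 12.7% of all genes were, and the median of the 15 was 0.38. TOMM5 and TOMM7, small subunits of the outer membrane pore, had log2 fold changes of 1.004 (edgeR, SE 0.23, adjusted p = 0.0138) and 1.04 (SE 0.27, adjusted p = 0.0211). TIMM10, a chaperone of the intermembrane space that hands carriers on, had 1.19 (SE 0.35, adjusted p = 0.0347). For all 3, day 19 replicate 1 was the lowest day 19 library, at 28.9, 38.4 and 11.2 CPM, near the range of the earlier days. Their calls were lost on leaving out 1, 5 and 8 of the 9 libraries one at a time (adjusted p up to 0.0598, 0.0758 and 0.120), and kept without day 19 replicate 1.

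Of 17 other pores and transporters of the mitochondrial membranes, VDAC3, an outer membrane porin, was lower than at day 6 both at day 16 (edgeR log2 -1.27, SE 0.20, adjusted p = 0.00370) and at day 19 (log2 -0.85, adjusted p = 0.0132). At day 19 the pyruvate carrier subunit MPC1 (log2 0.97, adjusted p = 0.0198) was higher than at day 6, and SFXN5, a sideroflexin, was lower (log2 -1.01, adjusted p = 0.0323). No gene of this list was called by edgeR between day 19 and day 16 (7 at an unadjusted p under 0.05, 3 by DESeq2 and 11 by limma voom). The counts over all tested genes there were 3946, 1756 and 7354. VDAC1 was called over the 3 days (edgeR F test, adjusted p = 0.0353) but in no pairwise edgeR comparison of all 9 libraries. DESeq2 and limma voom called VDAC1 lower at day 16 than at day 6 and higher at day 19 than at day 16. The median of the 17 was -0.12 for day 16 against day 6, 0.39 for day 19 against day 16 and 0.26 for day 19 against day 6. The calls of MPC1 and SFXN5 were each lost without 5 of the 9 libraries taken singly (adjusted p up to 0.0821 and 0.105).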

How the data were processed

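The file deposited by the authors is 1 table of raw counts, whole numbers with no scaling, with 25671 gene rows and a column for each of 9 libraries. Per the labels' protocols, RNA was extracted with Trizol and poly(A)-selected, and libraries were made with an Ion Total RNA-seq kit. Aligner, read counter, strand setting and genome build: not given in the sources used here, and genes that share reads with relatives or neighbours are uncertain.

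The test was edgeR 4.0.16 (R 4.3.3) with TMM scaling, filterByExpr on the day (16098 genes kept, about 1.02 CPM in at least 3 libraries), a robust quasi-likelihood fit to all 9 libraries with day as the only term, and Benjamini-Hochberg adjustment over all tested genes, with calls at 0.05. The SE is the absolute log2 fold change divided by the square root of F. The fit was checked on simulated counts. These had the same spread in every library and no library set apart, so the check does not cover the effect of day 19 replicate 1. Libraries of 1 day differed by a chi-square of at least 10.4 times its degrees of freedom, so none was a repeat deposit. Alternatives used DESeq2 1.42.0, limma 3.58.1 and the settings named in the closing section. All 42 members had their gene identifier in the gene table of ARS1.2, 39 of them under the same symbol; SLC25A6, SLC25A40 and SLC25A53 carry a locus name there. Called members, the 6 of highest mean CPM and carriers of set transport classes are described library by library. SLC25A12 and SLC25A13, of those classes, are an exception and are given by mean. Of the rest, SLC25A17, SLC25A30 and SLC25A40 are also given by library, and the others by mean, range, total count or call. The members and lists were chosen with earlier results of these data known. A tested member and a gene of the comparison lists are not reported here.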

Additional observations from a re-analysis of the deposited data

How the results depend on the processing

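The number of called genes depended most on the model of the spread and on day 19 replicate 1. For day 16 against day 6, 1427 genes were called in edgeR, 2274 in DESeq2, 3811 in limma voom with quality weights and 3092 with only the 2 days compared, and 664 to 3345 on leaving out 1 library; members went from 6 to 12 with voom and 10 with only the 2 days compared, and 3 to 10 on leaving out 1 library. For day 19 against day 16, 193 genes and 1 member were called in edgeR, 1756 and 4 in DESeq2, 7354 and 19 with voom, and 0 to 7331 and 0 to 17 on leaving out 1 library. With only the 2 days compared, edgeR called 0 genes and 0 members there (2726 and 7 at an unadjusted p under 0.05). For day 19 against day 6, 3684 genes and 9 members became 9433 and 21 with voom and 2357 genes with only the 2 days compared, and 1928 to 8891 and 5 to 16 on leaving out 1 library. For any difference among the days, 3156 genes and 10 members became 5096 genes in DESeq2, 10629 and 27 with voom, and 1416 to 9703 and 4 to 21 on leaving out 1 library.

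The replicate number gave no sign of pairing the libraries. Same-numbered libraries of different days had correlations of -0.16 to 0.15, 1 of 9 over 0.1, and 4 of 18 checks found a library closest to its own number. With 3 libraries per day and day 19 replicate 1 apart, these correlations cannot show that the libraries are unpaired. With the replicate number as a block, edgeR called 1100 genes and 5 members for day 16 against day 6, 2899 and 9 for day 19 against day 6, 2201 and 8 over the 3 days, and 0 and 0 for day 19 against day 16 (3572 and 6 at an unadjusted p under 0.05).

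Of 16 called member changes, 7 passed under every alternative in which they were tested and 9 were lost under at least 1; no member change reversed after passing. RLE and upper quartile scaling, the filter settings and the fit without robust estimation kept each count of calls within 1.5 times. SLC25A48 was not tested under the filter of 1 CPM in at least 6 libraries. Low counts limit SLC25A15, SLC25A27 and SLC25A48.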

Other observations

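Carriers of the same family also stood in the table outside the symbol rule, under locus names, as MTCH1 and MTCH2, or as UCP1, UCP2 and UCP3. UCP2, called in edgeR, is described above, and UCP1 and UCP3 were not tested. Of 23 further rows, under locus names or as MTCH1 and MTCH2 and chosen by description or symbol in ARS1.2, 10 were tested and 1 was called. LOC102184126, named SLC25A22 in ARS1.2, is a mitochondrial glutamate carrier. It stood at 9.28, 8.96 and 7.31 CPM at day 6, 6.00, 5.01 and 4.78 CPM at day 16 and 4.47, 4.09 and 4.34 CPM at day 19. The 3 days did not overlap, each lower than the one before, and the difference of day 19 from day 6 passed (edgeR log2 -0.98, SE 0.25, Benjamini-Hochberg adjusted p = 0.0191). Leaving out replicate 1 or 2 of day 6, or replicate 2 or 3 of day 19, ended the call (adjusted p up to 0.0700).

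LOC102189365, the ATP-Mg/phosphate carrier SLC25A24 by its symbol in ARS1.2, averaged 14.3 ± 4.53 CPM at day 6, 20.6 ± 7.01 CPM at day 16 and 16.6 ± 7.76 CPM at day 19, and was not called. LOC102187893, named SLC25A39 there, averaged 14.1 ± 0.0978, 12.4 ± 1.85 and 17.3 ± 6.27 CPM and was not called. Other rows are described as like SLC25A39, so reads of this glutathione carrier may be divided among them.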
